A study of Mus musculus with 4 samples.

Results

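Pax1, Pax9, Nkx3-2, Foxc1, Foxc2, Meox1, Meox2, Tbx18 and Scx are transcription factor genes of the sclerotome, of the axial skeleton and of its tendons. They were taken by name as a list of 9 genes, out of 18098 protein-coding genes whose symbol had a position in both annotations used here. A peak with its summit within 1 kb of the 5′ end of a gene was counted as its promoter peak, and all peaks with a summit in the gene body or within 100 kb on either side formed its window.

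The sclerotome is the ventral part of each somite, and its cells form the vertebrae, the intervertebral discs and the ribs. Hedgehog signals from the notochord and floor plate, together with the Bmp antagonist Noggin, induce Pax1 and Pax9 there, and these paired box factors act upstream of Nkx3-2, which keeps cells on the path to cartilage. Foxc1 and Foxc2 are forkhead factors of the paraxial mesoderm, Meox1 and Meox2 are homeobox factors of the early somite, Tbx18 keeps the anterior somite compartment distinct, and Scx marks tendon and ligament progenitors, including those that attach tendons to the ribs.

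Open chromatin was measured by ATAC-Seq, in which the Tn5 transposase inserts adapters where DNA is accessible. The cells were primary chondrocytes released with collagenase from the rib cartilage of newborn mice. The study's methods count cultured cells of up to 2 passages as primary, and do not give the passage of each library. WT and deletion cells came from littermates. The Cho group had 2 libraries, replicates 1 and 2, written Cho Rep1 and Cho Rep2, which the study's methods call biological replicates, and its labels gave no genotype. The genotypes WT and E160(delta/delta);E308(delta/delta), called the deletion library here, had 1 library each. E160 and E308 are elements upstream of Sox9, the master regulator of chondrocytes, and were removed from the germ line of C57BL/6J embryos by CRISPR/Cas9, so that every cell of the animal lacked them. Whether cells of several animals were pooled was not given in the sources used here. With 1 library for each genotype, no p-value is given, and a ratio of the deletion library to the WT library compares those 2 libraries.

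The lists held 76242 peaks in Cho Rep1, 148330 in Cho Rep2, 90971 in WT and 169591 in the deletion library, and their median fold enrichment ran from 6.25 to 7.93. Cho Rep1 stood apart, since all of its peaks used a constant background, whereas 40.8% of those of Cho Rep2 did. Both Cho values are therefore printed each time, and a Cho mean of fold enrichment joins values over unlike backgrounds. At E308 the strongest peak had a fold enrichment of 15.4 in WT and 3.07 in the deletion library, and at E160 it was 13.4 in WT with no peak in the deletion library. Of 8 chondrocyte marker genes, 7 had a promoter peak in Cho Rep2, in WT and in the deletion library, and 3 had a peak in Cho Rep1, while Comp had none in any list. No promoter peak was found in any list at Ptprc or Cd3e of blood, Myog or Ckm of muscle, or Krt5 or Krt14 of epithelium. Myod1 of muscle had a peak in the other 3 lists but not in Cho Rep1, and Epcam of epithelium had a peak in Cho Rep2 and in the deletion library. Of 3 fibroblast and bone markers, Col1a1 and Col1a2 had a peak in every list and Twist2 in all but Cho Rep1. Of the endothelial markers, Cdh5 had no peak in any list, Pecam1 had a fold enrichment of 8.31 in WT and 16.5 in the deletion library, and Tek had 4.41 and 7.99; the part of such cells in the results below was not tested.

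Most of the 9 genes had an open promoter in these rib cells. A promoter peak was present at 7 of 9 genes in Cho Rep1, where 58.6% of all genes had such a peak, and at 8 of 9 in Cho Rep2, against 64.7% of all genes. In WT the count was 8 of 9, against 62% of all genes, and in the deletion library it was 8 of 9, against 67.8%. All 4 lists had a promoter peak at the same 7 genes, Pax1, Nkx3-2, Foxc1, Foxc2, Meox2, Tbx18 and Scx, whereas 52.6% of all genes had a promoter peak in every list. The exceptions were Meox1, which lacked a peak in Cho Rep1, and Pax9, which had none at its annotated 5′ end in any list but a strong peak at a transcript start further downstream.

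Where called, the promoter peaks of the list were mostly not strong. Fold enrichment is the ratio of the summit pileup, the number of tags stacked at the highest point of a peak, to the background expected there, with 1 added to both. The median fold enrichment over the called genes of the list was 8.87 in Cho Rep1, 10.4 in Cho Rep2, 8.97 in WT and 8.50 in the deletion library. Corresponding medians over all called promoters of the genome were 12.2, 17.6, 12.7 and 12.4 in the same order. The median of the list was thus below that of all genes in each of the 4 libraries. In bulk chromatin, a site that is open in few cells and a site that is weakly open in many cells cannot be told apart.

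**Figure D1:**
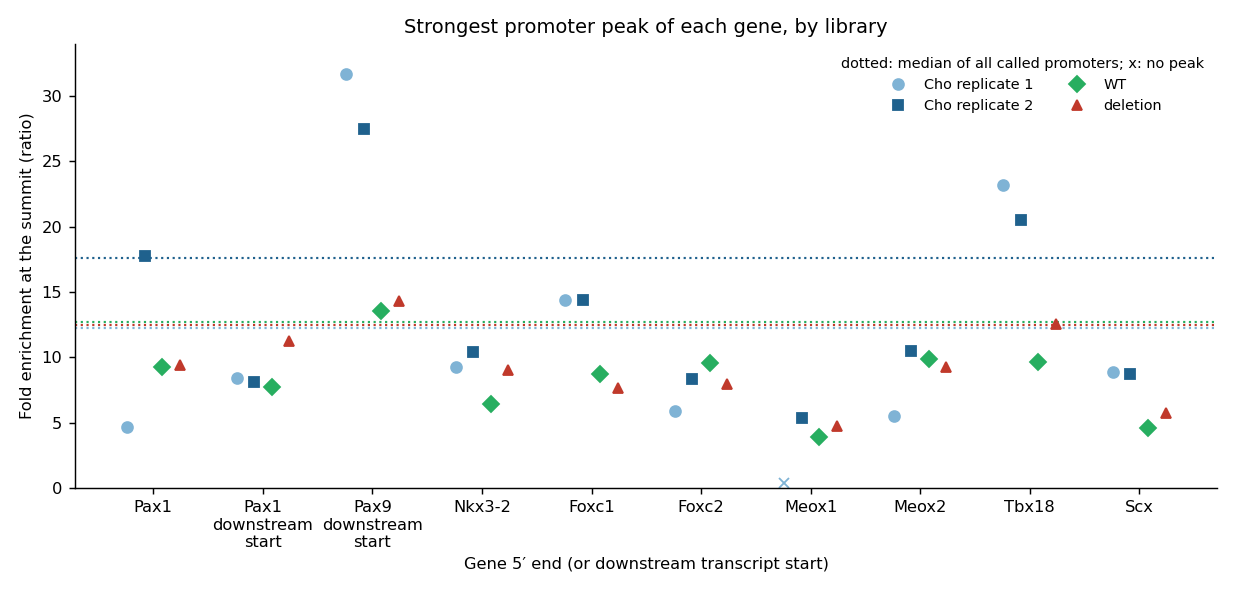
Fold enrichment (ratio, linear axis) of the strongest promoter peak of each gene in each of the 4 libraries, with the downstream transcript starts of Pax1 and Pax9 as columns of their own; dotted lines give the median over all called promoters of a library and a cross marks a missing peak. Pax9 at its downstream start and Tbx18 held the highest Cho values, and most other points lay below the dotted line of their own library.

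Pax9, with Pax1 the factor needed for vertebral bodies and discs, carried the strongest promoter of the list, but at a start other than the gene's 5′ end. Its gene runs from 57792754 to 57813809 on the forward strand of chromosome 12 (NCBIM37, ENSMUSG00000001497.11), and another transcript starts 3872 bp downstream of its 5′ end. At that start the fold enrichment was 31.7 in Cho Rep1, 27.5 in Cho Rep2, 13.5 in WT and 14.3 in the deletion library. All 4 values were above those of every other promoter of the list in the same library, and the Cho mean was 29.6 ± 2.97 (SD, n = 2). Among called promoters of the genome, 91.3% had a value this high or lower in Cho Rep1, and 56.3% in WT. The summits lay at 3863 bp, 3813 bp and 3818 bp from the 5′ end in Cho Rep1, WT and the deletion library. In Cho Rep2, tied to the NCBIM37 start by a RefSeq promoter sequence of Pax9 that occurs once in that build, the summit lay at 3815 bp, so that the 4 summits fell within 50 bp of each other.

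Pax1 had peaks near its 5′ end and at a downstream start as well, and its Cho replicates disagreed. Its gene lies at 147187661 to 147219031 on the forward strand of chromosome 2 (ENSMUSG00000037034.8). Near the 5′ end the fold enrichment was 4.65 in Cho Rep1, 17.7 in Cho Rep2, 9.24 in WT and 9.40 in the deletion library, which gave a Cho mean of 11.2 ± 9.26 (SD, n = 2). The summits of the NCBIM37 libraries lay between 577 bp and 628 bp downstream of the 5′ end, and that of Cho Rep2 at 629 bp when tied to the NCBIM37 start in the same way. At the transcript start 3069 bp downstream the values were closer together, at 8.45, 8.11, 7.68 and 11.2 in the same order, with a Cho mean of 8.28 ± 0.234 (SD, n = 2).

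Nkx3-2, also called Bapx1, a homeobox factor that Pax1 and Pax9 activate, had a promoter made of several small peaks. It is a short gene at 42152404 to 42155735 on the reverse strand of chromosome 5 (ENSMUSG00000049691.6). The strongest peak within 1 kb had a fold enrichment of 9.29 in Cho Rep1, 10.4 in Cho Rep2, 6.40 in WT and 9.05 in the deletion library. These were not the same peak, since the summit lay at −12 bp, −129 bp, 863 bp and −145 bp from the NCBIM37 5′ end. Between 3 peaks, in Cho Rep1, and 5 peaks, in Cho Rep2, lay within 5 kb of its start.

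Tbx18, a T-box repressor, had the highest Cho values at an annotated 5′ end. The fold enrichment was 23.2 in Cho Rep1, 20.5 in Cho Rep2, 9.65 in WT and 12.6 in the deletion library. Both Cho values, with a mean of 21.9 ± 1.94 (SD, n = 2), were above those of every gene of the list apart from Pax9 at its downstream start. Summits in Cho Rep2, WT and the deletion library lay at −124 bp, −125 bp and −123 bp from the 5′ end, and that of Cho Rep1 at −55 bp. The Cho Rep1 peak was 1932 bp wide and the other peaks were 231 bp, 203 bp and 195 bp wide.

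The forkhead genes Foxc1 and Foxc2 had promoter peaks in all 4 libraries, and at Foxc2 different peaks led in different libraries, as at Nkx3-2. At Foxc1 the fold enrichment was 14.4 in both Cho replicates, 8.70 in WT and 7.68 in the deletion library, and the Cho mean was 14.4 ± 0.015 (SD, n = 2). Measured as summit pileup over library background, however, the Cho replicates of Foxc1 were far apart, at 24.1 and 138. The Cho Rep2 summit lay over a local background of 17.9 and that of Cho Rep1 over the constant 1.37. At Foxc2 it was 5.91 in Cho Rep1, 8.32 in Cho Rep2, 9.56 in WT and 7.95 in the deletion library, with a Cho mean of 7.12 ± 1.70 (SD, n = 2). The strongest Foxc2 summit lay at 630 bp in WT and at −74 bp in the deletion library, so that different peaks of the same promoter led in each.

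The local background mattered most at these forkhead promoters and at Scx. At Foxc1 the WT summit held 36 tags over a local background of 3.25, while the background of the whole WT library was 0.36. Without the local correction, its pileup was 99.9 times the library background in WT and 89.4 times in the deletion library, the highest of the 8 promoters with a peak in both. Scx had 69.3 and 71.9 times the library background by this measure, although its fold enrichments were among the lowest of the list. The order of the genes therefore differed between fold enrichment and pileup over library background.

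Scx, a basic helix-loop-helix factor, had a promoter of several peaks spread over more than 1 kb. Its strongest promoter peak had a fold enrichment of 8.87 in Cho Rep1, 8.74 in Cho Rep2, 4.58 in WT and 5.69 in the deletion library, and the Cho mean was 8.81 ± 0.088 (SD, n = 2). The WT summit lay at −47 bp, and the summits of the other 3 libraries at −991 bp, −828 bp and −855 bp. In WT a further peak with a fold enrichment of 5.56 had its summit at −1148 bp, outside the 1 kb limit. WT and the deletion library each had 7 peaks within 5 kb of the Scx start, more than any other gene of the list in these libraries.

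The Meox genes differed from each other near their starts. At Meox1 no peak was called in Cho Rep1, and the fold enrichment was 5.34 in Cho Rep2, 3.88 in WT and 4.75 in the deletion library. It was, in each of these 3 lists, the weakest promoter peak of any called gene of the list, and in WT only 0.623% of all called promoters were as weak or weaker. At Meox2 the values were 5.49 in Cho Rep1, 10.5 in Cho Rep2, 9.85 in WT and 9.26 in the deletion library, with a Cho mean of 7.98 ± 3.52 (SD, n = 2). That mean joins different summits, at 558 bp in Cho Rep1 and 81 bp in Cho Rep2, which had a further peak of 6.42 at 577 bp. The WT and deletion summits of Meox2 lay 9 bp apart, at −96 bp and −105 bp.

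Ordered by the Cho mean at the 5′ end, the genes with a peak in both replicates ran Tbx18, Foxc1, Pax1, Nkx3-2, Scx, Meox2 and Foxc2. The gap between neighbours exceeded the larger of their SDs only between Tbx18 and Foxc1 and between Nkx3-2 and Scx. The other 4 neighbouring pairs did not differ beyond the spread of the replicates. Pileup over library background gave another order, with Foxc1 at 81.3 ± 80.9, Scx at 54.3 ± 56.2 and Tbx18 at 47.1 ± 10.8 (SD, n = 2), of which only Tbx18 had an SD well below its mean. The median of the Cho means was 9.84, and it was 8.87 with Cho Rep1 alone and 10.5 with Cho Rep2 alone.

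The sequences under the WT summits are shown for Tbx18, the strongest Cho promoter at a 5′ end, for Foxc1, the highest pileup over library background in WT, and for Meox2 and Scx, whose windows hold a TATA box. Each is given in the direction of transcription, from 75 bp before to 75 bp after the summit (NCBIM37), less any part that lies in an exon. Capitals mark matches on either strand to the E-box CANNTG of helix-loop-helix factors, the TATA box TATAAA, or GGTGGCGCT, letters found in many sites of the insulator protein CTCF. Tbx18 is from chr9:87626145-87626295 on the reverse strand, Foxc1 from chr13:31898327-31898477, Meox2 from chr12:37834956-37835106 and Scx from chr15:76287746-76287867, all on the forward strand.
Tbx18 promoter: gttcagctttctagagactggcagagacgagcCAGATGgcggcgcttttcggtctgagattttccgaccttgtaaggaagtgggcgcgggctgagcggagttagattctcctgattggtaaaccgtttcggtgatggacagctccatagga
Foxc1 promoter: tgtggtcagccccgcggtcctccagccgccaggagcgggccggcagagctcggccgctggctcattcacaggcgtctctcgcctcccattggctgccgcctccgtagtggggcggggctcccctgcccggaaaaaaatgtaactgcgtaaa
Meox2 promoter: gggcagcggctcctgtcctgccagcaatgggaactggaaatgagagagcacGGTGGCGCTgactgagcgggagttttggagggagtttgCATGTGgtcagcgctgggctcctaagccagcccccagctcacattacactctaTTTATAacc
Scx promoter: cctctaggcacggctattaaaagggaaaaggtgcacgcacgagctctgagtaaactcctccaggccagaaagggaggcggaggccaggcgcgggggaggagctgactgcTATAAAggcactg

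The 4 windows differed in composition. That of Foxc1 held 14 CpG, none of the motifs searched and 67.5% G and C, and that of Tbx18 held 10 CpG and an E-box. The full 151 bp windows at the 8 WT promoter summits had a median of 9.5 CpG, against 3 over all 90970 WT summit windows of the same length. All WT windows include distal summits, and WT promoter summits alone were not counted, so these shares do not set the list beside other promoters. Among the 8, an E-box was present at Pax1, Meox2 and Tbx18, and a TATA box at Meox2 and Scx. Over all WT summit windows, 52.8% held an E-box and 4.93% a TATA box. No match was found at the 8 promoters to GACCACCCA of Gli factors, which 0.0824% of all WT windows held, to ACAATG of Sox factors, which 4.88% held, or to TAAACA of Fox factors, which 7.15% held.

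In the RefSeq table of promoters, from 250 bp before to 50 bp after each start (GRCm38.p6), 6 of the 9 genes had an entry, and those of Pax1 and Pax9 were at downstream starts. Foxc1 had 32 CpG and Nkx3-2 had 25, at or above the number in 91.4% and 83.1% of the 32851 promoters in the table. Tbx18 had 15 CpG, Pax1 13, Meox2 12 and Pax9 11, while the median over the table was 7. All 6 were above the median, and the E-box was present in 4 of them, as in 72.3% of all promoters. The Pax9 entry held the Sox motif ACAATG, found in 12.6% of all promoters. That of Meox2 held a TATA box, found in 13.6%. Gli and Fox motifs were in none of the 6.

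Promoter peaks were then compared between the deletion and WT libraries. Both had a peak at 8 genes, and the log2 ratio of deletion to WT fold enrichment ran from −0.26 at Foxc2 to 0.50 at Nkx3-2. Its median was 0.16, against 0.01 over the 11182 genes with a peak in both. None of the 8 differed by 2-fold or more, where 1.16% of all genes did. None was thus 2-fold or more higher in the deletion library, where 1.08% of all genes were, and none was 2-fold or more lower, where 0.0805% were. The ratio was above 0 on the log2 scale at 5 genes, Pax1, Nkx3-2, Meox1, Tbx18 and Scx, and below 0 at Foxc1, Foxc2 and Meox2.

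Counting error was larger than these differences. The ratio of summit pileups over library background was 1.19 at Tbx18, with a 95% interval of 0.646 to 2.26, from 17 tags in WT and 35 in the deletion library. Meox1 had a ratio of 1.15, with an interval of 0.359 to 4.29, from 5 and 10 tags. At Foxc1, with 36 and 56 tags, it was 0.896, with an interval of 0.579 to 1.40. The intervals of all 8 genes included 1. They cover counting error only, and not the variation between animals or libraries, since each genotype had a single library. On this scale the median log2 ratio was −0.26 over all genes and −0.05 over the 8, so both were lower than on the scale of fold enrichment.

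**Figure D2:**
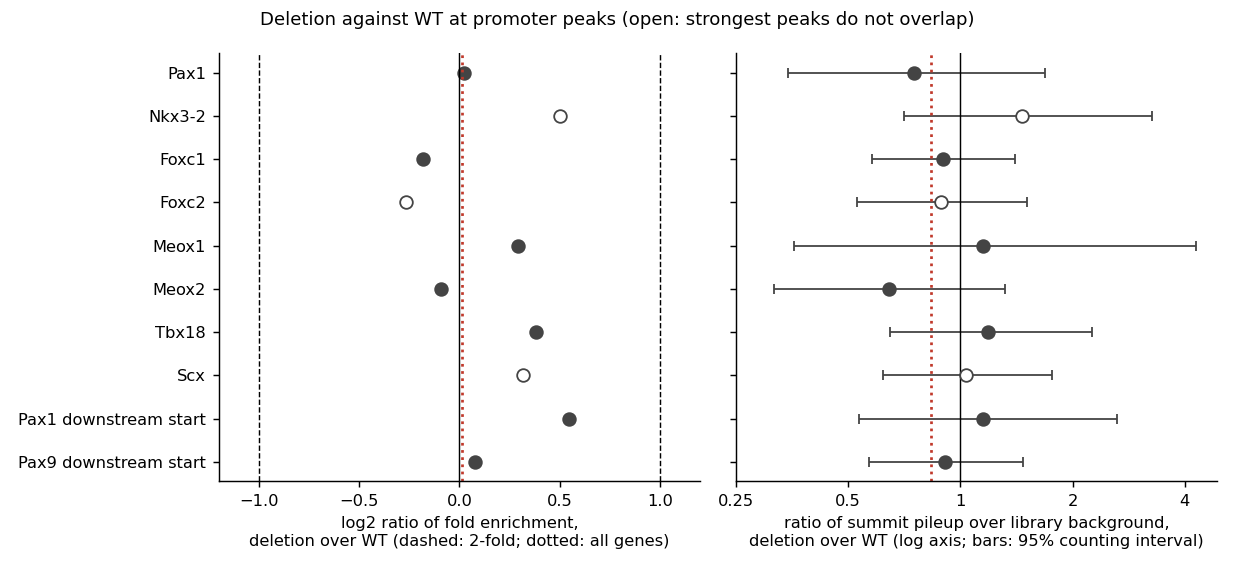
Left, log2 ratio of fold enrichment, deletion over WT, at promoter peaks; right, ratio of summit pileup over library background on a log axis, with bars for the 95% counting interval. Points stay between −0.26 and 0.55 on the left and every bar on the right crosses 1; open points mark genes whose strongest peaks do not overlap, and dotted lines give the median over all genes.

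At Nkx3-2, Foxc2 and Scx the strongest peaks of the libraries did not overlap, and the ratio changed when the same stretch was compared. With the deletion peak that overlaps the strongest WT peak, the log2 ratio was 0.02 at Nkx3-2, 0.08 at Scx and −0.70 at Foxc2. The overlapping pair at Foxc2 lay about 630 bp downstream of the start, with a fold enrichment of 9.56 in WT and 5.87 in the deletion library, and its pileup ratio was 0.642, with an interval of 0.365 to 1.14. The downstream starts showed log2 ratios of 0.08 at Pax9 and 0.55 at Pax1. Their pileup ratios were 0.91, with an interval of 0.569 to 1.48, and 1.15, with an interval of 0.535 to 2.63.

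The number of peaks around the genes also differed between genes. The 9 windows together held 87 peaks in Cho Rep1, 198 in Cho Rep2, 133 in WT and 224 in the deletion library. Counts in WT ran from 4 at Tbx18 to 29 at Meox1, and in the deletion library from 11 at Tbx18 to 40 at Meox1. The median per 100 kb of window was 7.24 in WT, against 5.76 over all genes, and 10.8 in the deletion library, against 10.4. In WT, the plot of peak density shows dense windows at Meox1, Foxc2 and Scx, middle values at Pax9 and Foxc1, and sparse windows at Pax1, Nkx3-2, Meox2 and Tbx18. Cho Rep1 departed from this, with Nkx3-2 at 4.43 and Tbx18 at 4.38 above its median of 4.35 over all genes, and Meox1 at 3.23 below it.

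**Figure D3:**
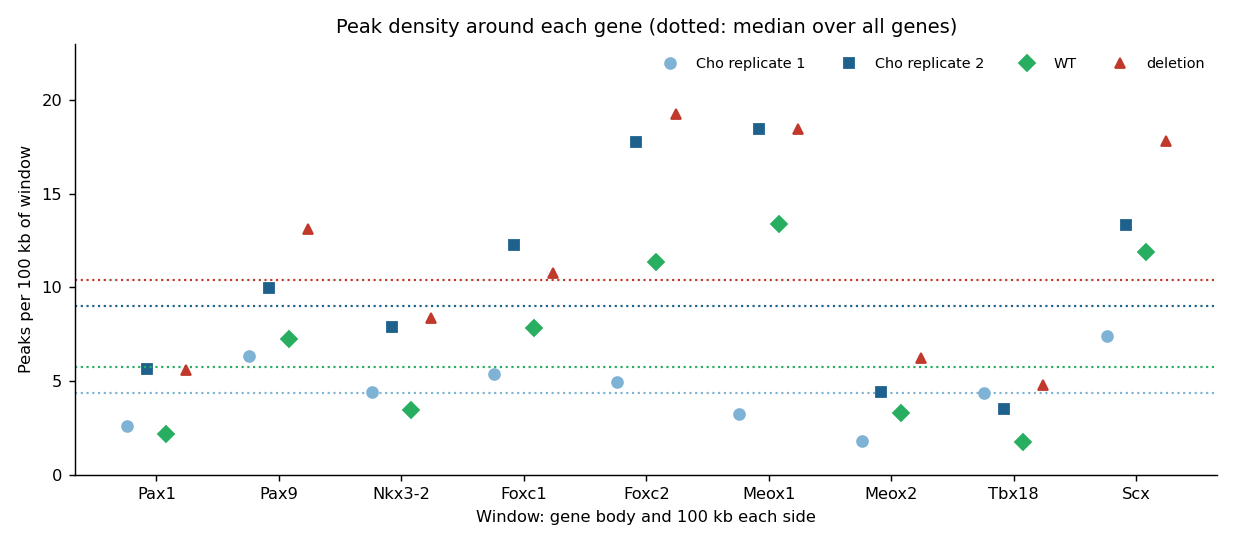
Peaks per 100 kb in the window of each gene (gene body and 100 kb each side) in each library, with the median over all genes as dotted lines. In WT, Meox1 (13.4), Scx (11.9) and Foxc2 (11.3) lay above the median of 5.76, and Tbx18 (1.75) and Pax1 (2.16) lay below it.

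Meox1 had the weakest WT promoter of the list and its densest WT window. Its WT window held 13.4 peaks per 100 kb, as many as or more than 93.8% of all genes, and 23 of its 29 WT peaks were intergenic. In Cho Rep1 the same window held 7 peaks, or 3.23 per 100 kb, as many as or more than 34.1% of all genes. The window held 40 peaks in Cho Rep2 and 40 in the deletion library, where Foxc2 was denser, at 19.2 against 18.4 per 100 kb.

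Foxc2 and Scx had dense windows of different make-up. At Foxc2 there were 10, 36, 23 and 39 peaks in Cho Rep1, Cho Rep2, WT and the deletion library, and 16 of the 23 WT peaks lay in introns, mostly of the overlapping gene Gm20388. At Scx there were 15, 27, 24 and 36 peaks in the same order. Its window held the starts of 9 other protein-coding genes, the most of the list, and 9 of its 24 WT peaks lay at promoters of those genes. Over the 133 WT peaks of all windows, 16 were at a promoter of the list, 19 at a promoter of another gene, 43 in introns, 8 in exons and 47 between genes.

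The sparse WT windows belonged to Pax1, Nkx3-2, Meox2 and Tbx18. Pax1 and Tbx18 had no other protein-coding gene starting in their window, and WT held 5 peaks at Pax1 and 4 at Tbx18. Only 17.3% of all genes had as few WT peaks per 100 kb as Tbx18 or fewer. Foxc1, by contrast, had no other protein-coding gene starting in its window but 16 WT peaks, or 7.84 per 100 kb.

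**Figure D4:**
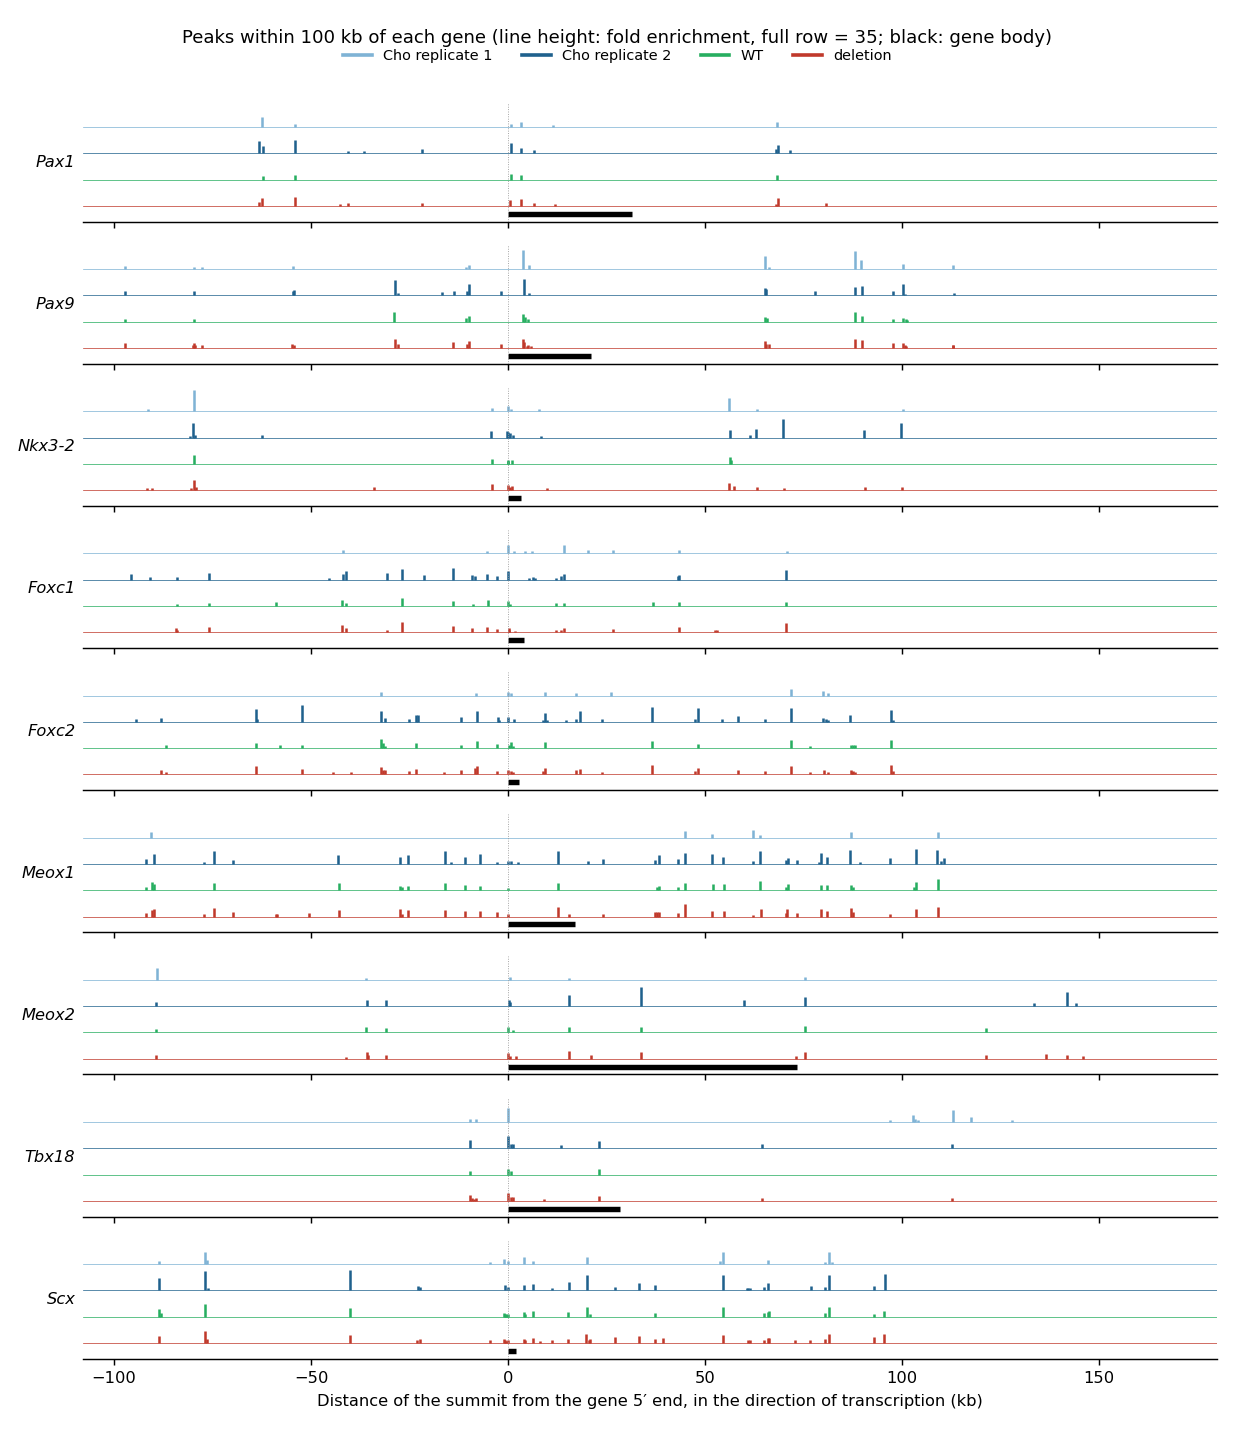
Summits of all peaks in the 9 windows by distance from the gene's 5′ end in the direction of transcription (kb), with 1 row of lines for each library; line height is fold enrichment and the black bar is the gene body. Lines recur at the same distance in several libraries, and the window of Tbx18 has a cluster past 90 kb that is mostly from Cho Rep1.

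More peaks were called around these genes in the deletion library than in WT, as in the lists as a whole. The ratio of peak numbers was 1.68, with a 95% counting interval of 1.35 to 2.10, against 1.86 for the whole lists. When equal numbers of the strongest peaks were taken from both lists, the ratio was 1.02. Of the 133 WT peaks, 128 overlapped a deletion peak, or 96.2% (95% exact interval 91.4% to 98.8%), and 95.9% of all WT peaks did. In the other direction, 56.2% of the 224 deletion peaks overlapped a WT peak, against 49.4% of all deletion peaks.

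Merged over the 3 NCBIM37 lists, the windows held 219 sites. A Cho Rep2 peak was then sought at each site by its distance from the gene start. All 4 lists had a peak at 55 of them, 3 lists at 59, 2 lists at 56 and a single list at 49. Peaks found in Cho Rep2 alone formed no site and are not in these counts. At 88 sites the deletion library had a peak and WT had none, and 57 of these 88 had a peak in a Cho library. At 5 sites WT had a peak and the deletion library had none. Sites were not counted around other genes, so these numbers describe the 9 windows only. Over the whole lists, 49.4% of deletion peaks overlapped a WT peak, and 95.9% of WT peaks overlapped a deletion peak. Tbx18 stood out for Cho Rep1, which alone had a peak at 6 of the 15 sites of that window.

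The strongest distal peak of each window, over 1 kb from the annotated 5′ end of every gene, was present in the deletion library for all 9 genes. For Pax9 it lay 88.1 kb downstream, in an intron of Slc25a21, with a fold enrichment of 30.4 in Cho Rep1, 14.5 in Cho Rep2, 15.6 in WT and 15.7 in the deletion library. For Meox1 it lay at 64.0 kb between genes, with 3.80, 21.0, 14.8 and 13.2 in the same order. For Foxc2 it lay at 71.7 kb in an intron of Gm20388, with 11.4, 23.5, 14.3 and 13.9. These 3 WT values were above those of the genes' own promoters, 3.88 at Meox1 and 9.56 at Foxc2, and that of Pax9 was above the 13.5 of its downstream start.

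The sites of Foxc1, Scx and Tbx18 had no peak in Cho Rep1. For Foxc1 the site at −26.9 kb had no peak in Cho Rep1, 18.6 in Cho Rep2, 14.0 in WT and 16.5 in the deletion library. For Scx the site at −40.2 kb, in an intron of Heatr7a, had none, 34.5, 13.9 and 13.5, and the Cho Rep2 value was the highest of all 9 sites. For Tbx18 the site at 22.9 kb, in its own intron, had none, 12.9, 8.82 and 7.38. The WT values at Foxc1 and Scx were above those at their promoters, while that at Tbx18 was below the 9.65 of its promoter.

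The strongest distal sites of Meox2, Pax1 and Nkx3-2 had a peak in all 4 libraries. For Meox2 the site at 75.3 kb, past the end of the gene, had 5.49, 15.6, 10.3 and 10.5 in Cho Rep1, Cho Rep2, WT and the deletion library. For Pax1 the site at −54.0 kb, in an exon of the noncoding gene Nkx2-2as, had 5.07, 21.6, 8.09 and 14.1. For Nkx3-2 the site at −4.09 kb had 5.07, 10.98, 7.30 and 9.72. The pileup ratio of deletion to WT ran from 0.576 at Tbx18 to 1.27 at Pax1 over the 9 sites, and its interval included 1 at each.

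Summit sequences are shown for 5 of these distal sites, chosen for a motif match or for the height of the peak, in the direction of the gene they are listed with. Capitals mark the motifs named above and the AP-1 motif TGANTCA of Fos and Jun factors. Pax9 is from chr12:57880746-57880896, Foxc2 from chr8:123711655-123711805 and Scx from chr15:76247601-76247725 on the forward strand, and Meox1 from chr11:101691594-101691744 and Nkx3-2 from chr5:42159750-42159900 on the reverse strand.
Pax9 distal: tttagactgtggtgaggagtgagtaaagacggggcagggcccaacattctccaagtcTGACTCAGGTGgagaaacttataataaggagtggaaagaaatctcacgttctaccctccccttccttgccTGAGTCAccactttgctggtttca
Foxc2 distal: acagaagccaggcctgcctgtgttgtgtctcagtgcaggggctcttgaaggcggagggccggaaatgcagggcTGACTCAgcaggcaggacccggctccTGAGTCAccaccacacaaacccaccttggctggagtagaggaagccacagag
Meox1 distal: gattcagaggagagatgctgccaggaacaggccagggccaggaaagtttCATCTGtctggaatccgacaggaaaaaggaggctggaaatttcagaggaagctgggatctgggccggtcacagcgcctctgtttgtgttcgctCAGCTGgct
Nkx3-2 distal: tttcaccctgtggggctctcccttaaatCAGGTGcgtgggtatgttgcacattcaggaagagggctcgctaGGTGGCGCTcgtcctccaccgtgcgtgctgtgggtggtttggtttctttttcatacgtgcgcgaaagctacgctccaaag
Scx distal: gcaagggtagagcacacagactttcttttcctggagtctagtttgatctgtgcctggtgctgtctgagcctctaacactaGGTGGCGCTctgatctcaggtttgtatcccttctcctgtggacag

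AP-1 and GGTGGCGCT were added to the motifs after these sequences had been read, so their counts only describe them. Of the 9 distal windows, 2 held an AP-1 motif, Pax9 and Foxc2, each with 2 copies, and 17.3% of all WT summit windows held that motif. In the Pax9 window a copy of the AP-1 motif overlaps the E-box. GGTGGCGCT was present at Nkx3-2 and Scx and in 0.611% of all WT windows. An E-box was present in 4 of the 9, at Pax9, Nkx3-2, Foxc1 and Meox1, and Gli, Sox and Fox motifs in none. The 9 windows had a median of 2 CpG, against 9.5 at the promoters of the list.

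Distal peaks found in both WT and the deletion library numbered 93 in the 9 windows. By this definition 5 of them lay within 1 kb of a transcript start inside a gene, 3 of these at the downstream starts of Pax1 and Pax9. Their median log2 ratio of fold enrichment was 0.24, against 0.33 over all 68344 such peaks. Of the 93, 5 were 2-fold or more higher in the deletion library and none was 2-fold or more lower, while over all shared distal peaks 8.2% were higher and 0.0819% were lower. Peaks were paired by overlap, and the Meox1 pair among the 5 joined different summits, as described below. Without the 5 near transcript starts the median was 0.24 over 88 peaks, and 5 were still higher. With summit pileup over library background the median was −0.02, against 0.03 over all shared distal peaks.

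The 5 were found in 4 windows, at Pax1, Meox1, Scx and, with 2 peaks, Foxc1. The Meox1 increase compared different summits. Its WT peak at 102968 bp, of 5.74, was paired with a wide deletion peak of 13.2 whose summit lay at 103484 bp. A stronger WT peak at 103500 bp, of 13.7, was paired with that same deletion peak and did not differ from it by 2-fold. The largest ratio was at Pax1, at −62333 bp, where the fold enrichment was 16.9 in Cho Rep1, 12.9 in Cho Rep2, 5.15 in WT and 12.6 in the deletion library. Its log2 ratio was 1.29 and its pileup ratio 1.92, with an interval of 0.743 to 5.84. The WT value was the lowest of the 4 libraries there. None of the 5 had an interval above 1.

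The interval excluded 1 at a single shared distal peak, which lay in the other direction. It was at −90452 bp from Meox1, in an intron of Dusp3, with a fold enrichment of 13.4 in WT and 10.3 in the deletion library. Its pileup ratio was 0.609, with an interval of 0.373 to 0.995, from 35 and 37 tags. It was 1 of the 93 peaks examined, and it was chosen after its value was seen.

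**Figure D5:**
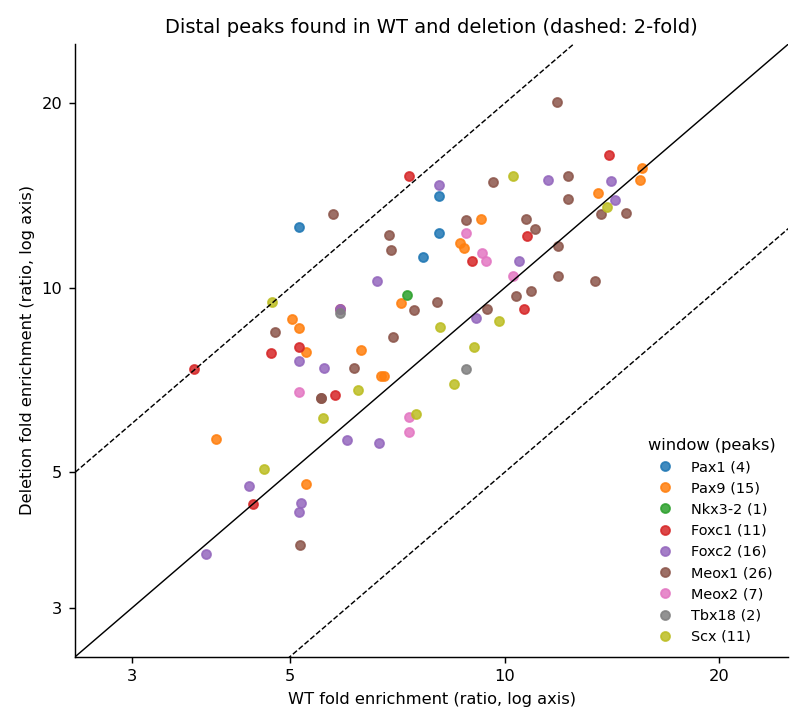
Fold enrichment of the 93 distal peaks present in both WT and the deletion library, by the window they lie in (number of peaks in brackets), on log axes with the line of equality and dashed 2-fold lines. Most points lie just above the line of equality, 5 reach the upper 2-fold line and none reaches the lower. The Meox1 point among the 5 pairs different summits.

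Few WT peaks of the windows were without a deletion peak. There were 5, with a median fold enrichment of 5.12, against 6.86 over all WT peaks. The strongest, of 6.62, lay at 36851 bp from Foxc1, in an intron of Gmds, followed by 5.88 at −58854 bp from Foxc1 and 5.12 at −57948 bp from Foxc2. None of these 3 was found in a Cho library. Of the 224 deletion peaks, 98 overlapped no WT peak, with a median fold enrichment of 4.92, against 6.25 over all deletion peaks.

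The 3 strongest of those 98 each had a peak in a Cho library. At 33294 bp from Scx, in an intron of Hsf1, the deletion library had 10.9 and Cho Rep2 also had a peak. At −8328 bp from Foxc2, at the promoter of Mthfsd, it had 10.8 and Cho Rep1 also had a peak. WT was not without a peak at this promoter, since it had 11.8 at −7836 bp, beside that deletion peak. At −13892 bp from Pax9 the deletion library had 9.37 and Cho Rep2 also had a peak.

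The Cho replicates, whose lists use different builds, were compared by the distance of each summit from the start of the same gene. Of the 87 Cho Rep1 summits, 61 had a Cho Rep2 summit within 250 bp of the same distance, or 70.1% (95% exact interval 59.4% to 79.5%), against 57.6% over the windows of all genes. The share was lowest at Tbx18, with 3 of 10. At Nkx3-2 it was 4 of 9, but the starts of this gene differ by 276 bp between the annotations, and 6 of 9 were matched once the RefSeq promoter sequence tied the starts. With the starts tied in this way at all 6 genes where it could be done, 63 of 87 were matched, or 72.4%. The starts of the other genes of the genome were not tied, so the 57.6% has no such correction and may be low. Whether the list replicated better than other genes was not tested. At Meox2, 5 of 5 were matched, and at Meox1, 6 of 7.

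Tbx18 thus had a well replicated promoter and a poorly replicated flank. Among the summits found in Cho Rep1 at this gene, 6 lay between 96915 bp and 127878 bp downstream with no peak in any other list, with fold enrichments from 2.96 to 10.98. A seventh, at 112819 bp, had 20.3 in Cho Rep1, 6.43 in Cho Rep2, none in WT and 5.53 in the deletion library.

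Of 23 other listed genes of the pathway, 12 had a promoter peak in Cho Rep1, 16 in Cho Rep2, 14 in WT and 20 in the deletion library, and 10 had a peak in all 4. Over all genes the shares were 58.6%, 64.7%, 62%, 67.8% and 52.6%, so only in the deletion library was the count of the list well above that share. The 67.8% came from that same list, which was the longest, with 169591 peaks, and the reason for the higher count was not tested. Shh, Ripply2 and Pax7 had a peak in the deletion library alone, of 4.92, 5.53 and 6.07. The median over all called promoters there was 12.4. In the hedgehog and induction group, all 6 genes had a peak in the deletion library and 4 in WT. Gli3, the main repressor of the hedgehog response, had a fold enrichment of 29.1 in Cho Rep1, 14.7 in Cho Rep2, 10.9 in WT and 9.75 in the deletion library. Shh, the gene of the ligand, had a peak in the deletion library only, of 4.92.

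Of the somite and sclerotome genes, all 7 had a promoter peak in both WT and the deletion library, 6 in Cho Rep2 and 5 in Cho Rep1. Tcf15, a helix-loop-helix factor that keeps the somite epithelial, had a fold enrichment of 4.65, 9.76, 4.15 and 5.98 in Cho Rep1, Cho Rep2, WT and the deletion library. Uncx, which is needed for the posterior sclerotome, had no peak in the Cho libraries, 3.35 in WT and 5.44 in the deletion library.

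Of 7 genes of the presomitic mesoderm and dermomyotome, only Pax3 had a peak in Cho Rep1, only Mesp2 in WT, 3 had a peak in Cho Rep2 and 5 in the deletion library. Msgn1, a presomitic factor, and Myf5, which starts the muscle program, had none in any list. Among the tendon genes, Mkx and Egr1 had a peak in all 4 lists and Tnmd, a tendon surface protein, in none. Of the 14 pathway genes with a peak in both WT and the deletion library, none differed by 2-fold or more in either direction, and their median log2 ratio was 0.04.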

How the data were processed

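ATAC-Seq was done on primary rib chondrocytes from newborn mice, with 2 Cho libraries, 1 WT library and 1 library of the E160 and E308 deletion, grouped by their labels. Per the submitters' processing notes, the authors used fastp, Bowtie2 2.4.4, Picard 2.20.7, SAMtools 1.9 and MACS2 2.2.4, and per the study's methods peaks were called at a q-value of 0.05. In the deposited lists the height of a peak is its fold enrichment, a ratio. The same lists hold, as deposited, a −log10 p-value and a −log10 q-value for each summit and a score of 10 times the −log10 q-value as a whole number. Values belong to each list and move with its depth. Total reads were not given in the files, so depth is given as the library background, which was 1.37 tags at a site in Cho Rep1, 1.96 in Cho Rep2, 0.36 in WT and 0.626 in the deletion library.

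Only the strongest entry per interval was kept, which left 76242 of 87815 entries in Cho Rep1 and all entries of the other lists. Gene positions were those of NCBIM37 (mm9, GENCODE) for 3 lists and of GRCm38 (RefSeq) for Cho Rep2, whose positions follow that build although the notes name mm9. No coordinates were converted. At 6 genes the starts of both annotations were compared through a RefSeq promoter sequence that matched NCBIM37 exactly and once. Whole summit pileups were solved from fold enrichment and p-value under a Poisson background, for at least 98.3% of the peaks of each list. The solution and the intervals were tested on simulated data. Shares and pileup ratios have 95% exact binomial intervals, for counting error only. Overlap meant 1 bp or more, and a difference of 2-fold or more was called. WT and the deletion had no replicates, so no test across genes was run.

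Genes, lists and comparisons were chosen with earlier results of these data known. Named sites were the 9 genes, the distal WT peak of highest fold enrichment in each window, the 3 strongest peaks without a partner in either direction, and the pathway and marker genes. The markers Runx2 and Spi1 had no position in both annotations. Alternatives covered distances, windows, stricter q-values, other starts, other measures, overlap of at least 50%, equal numbers of peaks and single Cho replicates. Signal tracks and the ChIP-Seq and RNA-Seq samples were not analysed here. Python 3.11.15, numpy 2.4.6, pandas 2.3.3, scipy 1.17.1 and matplotlib 3.10.9 were used.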

Additional observations from a re-analysis of the deposited data

How the results depend on the processing

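The number of genes with a promoter peak, the log2 ratio at each promoter other than Scx and the agreement of the Cho replicates stayed within their counting interval or within 1.5-fold of their value under every alternative run. With windows of 50 kb each side, the peaks numbered 48 in Cho Rep1, 114 in Cho Rep2, 81 in WT and 136 in the deletion library, and with a −log10 q-value of at least 5 Cho Rep1 had 57. With equal numbers of strongest peaks the ratio of deletion to WT peaks was 1.02 and 88.0% of WT peaks overlapped a deletion peak, and with an overlap of at least 50% the share was 78.2%. With −log10 q-values in place of fold enrichment, the median log2 ratio at promoters was 0.70, 3 genes differed by 2-fold or more and Scx had 1.16. That measure also grows with depth. With pileup over library background, the median log2 ratio at shared distal peaks was −0.024. The median Cho fold enrichment was 8.87 to 10.5 with either Cho replicate left out. Counting all listed summits of Cho Rep1, and leaving out each window in turn, which gave a ratio of 1.64 to 1.77, tying the gene starts of Cho Rep2, which gave 72.4% matched summits, and leaving out shared distal peaks near transcript starts, which gave 0.24, were chosen after seeing the data. No paired analysis was possible because each genotype was measured in a single library and no test was run. Few tags per summit, 5 to 36 in WT at these promoters, limit what could be seen.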
